A study of Mus musculus with 23 samples.

Results

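Wee1 and Zhx3 are 2 of the 55487 genes counted in primary mouse embryonic fibroblasts (MEFs) that carried 1 of 4 forms of the glucocorticoid receptor (GR), the transcription factor through which dexamethasone (Dex) acts. Both genes were chosen by their measured values, because their read counts were higher with Dex in GRwt/wt cells and not in GRL/L cells or in cells with the double mutant GRD+L/D+L. Those contrasts are therefore given as a description, without a test. Tests are kept for what the choice did not use, namely the Dex response of GRD/D cells and the mean level of each gene compared between the mutant genotypes. Both genes passed the filter on low counts, as did 15748 genes in all.

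The cells were of the FVB/NJ strain, and each culture of a genotype came from another mouse. GRwt/wt cells had the unmodified receptor. GRD/D cells carried a change of alanine to threonine in the dimerisation loop of the DNA-binding domain, GRL/L cells a change of isoleucine to alanine in the ligand-binding domain, and the double mutant GRD+L/D+L both changes. Each change was homozygous and carried in the germline. Cells were exposed to solvent (vehicle) or 10 nM Dex, a synthetic glucocorticoid, for 5 h. The 23 libraries formed 8 groups of 3, except for GRD/D vehicle with 2.

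WEE1 is a nuclear kinase that adds an inhibitory phosphate to a tyrosine of CDK1, the kinase that drives entry into mitosis. PKMYT1 acts beside it, CDC25 phosphatases remove the phosphate, and CHK1, PLK1 and the ubiquitin ligase adaptor BTRC control how active and how long-lived WEE1 is. Wee1 is also known as an output of the circadian clock, whose activators bind E-boxes. ZHX3 belongs, with ZHX1 and ZHX2, to a small family of nuclear proteins with zinc fingers and homeodomains, which form dimers with one another and interact with the NF-YA subunit of the factor that binds CCAAT boxes. Ligand-bound GR moves to the nucleus and binds glucocorticoid response elements, which are pairs of half-sites, as a dimer, or acts as a monomer.

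Wee1 (ENSMUSG00000031016) lies on the plus strand of chromosome 7 from 110122046 to 110143286, and Zhx3 (ENSMUSG00000035877) on the minus strand of chromosome 2 from 160748708 to 160872998 (GRCm38, GENCODE M21). The 250 bases before the start of Zhx3 in the RefSeq annotation of GRCm38.p6, chr2:160872991-160873240 on the minus strand, are shown because they are the part of the gene nearest to its start and show which common motifs are present there. Capitals mark the motif matches that were found.

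Zhx3: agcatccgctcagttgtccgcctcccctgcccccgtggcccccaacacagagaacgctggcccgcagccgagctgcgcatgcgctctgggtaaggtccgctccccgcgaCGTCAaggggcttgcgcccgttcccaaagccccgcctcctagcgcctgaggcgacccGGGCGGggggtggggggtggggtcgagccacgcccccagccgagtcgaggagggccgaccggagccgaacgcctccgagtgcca

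The window had a GC content of 73.6% and 28 CG pairs, against medians of 52.4% and 6.0 over the 32536 RefSeq promoters of this length. On both strands, 7 motifs were searched. A GC box (GGGCGG) was found once, 84 bases before the start, and 33.0% of promoters held one. The half-site of the cyclic AMP response element (TGACG, on the other strand, so that CGTCA is printed) was found once, 141 bases before the start, against 17.9% of promoters. The full cyclic AMP response element (TGACGTCA), which contains that half-site, was not found and occurred in 1.56% of promoters. The glucocorticoid half-site AGAACA was not found in these letters and occurred in 16.0% of promoters, the full response element, which holds that half-site on both strands, was not found and occurred in 0.00922%, the E-box CACGTG was not found against 6.04%, and CCAAT was not found against 33.8%. These windows say nothing of elements farther away.

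In GRwt/wt cells, the normalised read count of Wee1 was 14.6, 19.3 and 19.5 CPM (counts scaled to the total of the library) in the vehicle libraries and 54.0, 37.2 and 47.8 in the Dex libraries. The means were 17.8 ± 2.81 and 46.3 ± 8.49 CPM (SD, n = 3 each). The lowest Dex library was above the highest vehicle library, and the groups did not overlap, which was so for 4.98% of the genes tested in this genotype. The fitted log2 fold change (LFC) was 1.38 (SE 0.15, 95% interval 1.06 to 1.69), a 2.60-fold difference.

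For Zhx3, the GRwt/wt vehicle libraries were at 19.7, 19.8 and 23.2 CPM and the Dex libraries at 57.2, 78.8 and 57.6 CPM, with means of 20.9 ± 1.99 and 64.5 ± 12.4. The LFC was 1.63 (SE 0.17, 95% interval 1.26 to 1.99), or 3.09-fold. The groups were separated for this gene too. Dex library 1 was the highest for Wee1 and the lowest for Zhx3, and Dex library 2 was the lowest for Wee1 and the highest for Zhx3. Total RNA of a culture was measured, so more transcript per cell and more cells that express the gene cannot be told apart.

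Both belonged to the 25 genes (0.159% of those tested) that GRwt/wt cells had at a higher called level after Dex, where a call needs both an adjusted p no higher than 0.05 in edgeR's quasi-likelihood test and an LFC of 1 or more in size. These calls are part of how the members were chosen and support nothing further. DESeq2 called 119 genes higher and 160 lower in the same comparison, against 25 and 0 in edgeR. Ordered by LFC in edgeR, Zhx3 was the 14th and Wee1 the 17th. Directly above and below Zhx3 stood Pld1, a phospholipase D (LFC 1.64), and Col11a1, a collagen chain (1.62). Directly above Wee1 stood Sesn1, a p53-responsive inhibitor of mTORC1 signalling (1.50). The choice also rested on the difference in response between genotypes, which was called in GRL/L and also in the double mutant for Fkbp5, a chaperone of GR, Per1, Zhx3 and Wee1. Just outside, by the larger of its 2 adjusted p, was Pld1, whose difference was −1.63 in GRL/L and −1.62 in the double mutant, with adjusted p of 0.0717 and 0.0777 in edgeR.

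**Figure D1:**
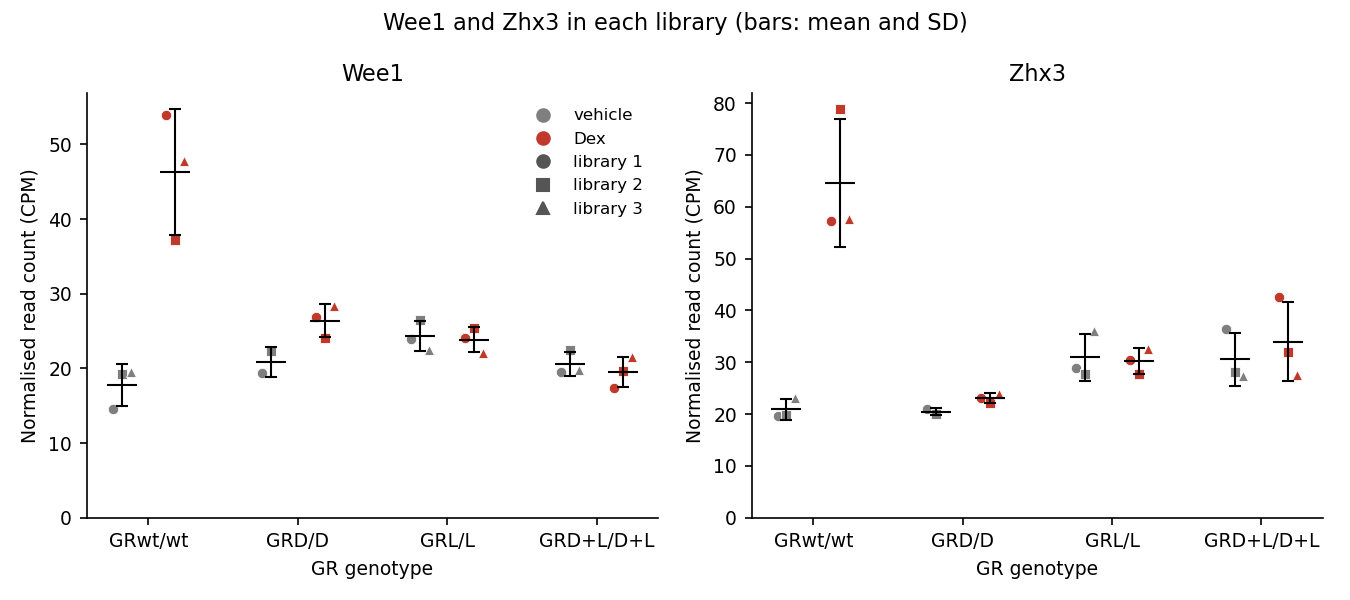
Normalised read count (CPM, linear axis from 0) of Wee1 and Zhx3 in each of the 23 libraries, by genotype, with vehicle in grey and Dex in red, symbols for the library number, and bars for the mean and SD. The 3 GRwt/wt Dex libraries stand at 37.2 to 54.0 CPM for Wee1 and 57.2 to 78.8 CPM for Zhx3, above all other libraries.

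In GRL/L cells, Wee1 was at 23.9, 26.5 and 22.5 CPM with vehicle and 24.1, 25.4 and 22.1 CPM with Dex. Zhx3 was at 28.9, 27.8 and 36.0 CPM with vehicle and 30.5, 27.7 and 32.6 CPM with Dex. For both genes the ranges overlapped, with LFCs of −0.026 (95% interval −0.34 to 0.29) for Wee1 and −0.031 (−0.39 to 0.32) for Zhx3. All Dex libraries were above all vehicle libraries for 2.43% of genes in this genotype, and neither member was among them.

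In GRD+L/D+L cells, Wee1 was at 19.6, 22.5 and 19.8 CPM with vehicle and 17.4, 19.7 and 21.5 CPM with Dex, an LFC of −0.079 (−0.39 to 0.23). Zhx3 was at 36.4, 28.1 and 27.3 CPM with vehicle and 42.5, 31.9 and 27.6 CPM with Dex, an LFC of 0.15 (−0.20 to 0.51). Again the ranges overlapped for both genes, while 1.88% of genes were separated upward in this genotype. Culture 1 had the highest Zhx3 of its genotype under both treatments, and without its Dex library the LFC of Zhx3 was −0.042.

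The Dex response of GRD/D cells was not used in the choice. Wee1 was at 19.5 and 22.3 CPM with vehicle and 26.9, 24.0 and 28.3 CPM with Dex, with means of 20.9 ± 2.04 (n = 2) and 26.4 ± 2.19 (n = 3). Zhx3 was at 20.9 and 20.0 CPM with vehicle and 23.2, 22.1 and 23.9 CPM with Dex, with means of 20.5 ± 0.65 and 23.1 ± 0.94. Every Dex library exceeded both vehicle libraries for each gene, as it did for 10.8% of all genes in this comparison of 3 libraries with 2.

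Neither difference in GRD/D passed the test. The LFC of Wee1 was 0.34 (SE 0.17, 95% interval −0.013 to 0.69), with an unadjusted p of 0.0582 and an adjusted p of 1 in edgeR's quasi-likelihood test over all genes. For Zhx3 it was 0.17 (SE 0.19, −0.23 to 0.57), with an unadjusted p of 0.382 and an adjusted p of 1 in the same edgeR test. Of all genes tested in GRD/D, 0% were called (0 genes in edgeR, with 154 at an unadjusted p under 0.05, and Per1 and Fkbp5 called in DESeq2). As a description, the response of GRD/D minus that of GRwt/wt was −1.04 (SE 0.22) for Wee1 and −1.46 (SE 0.25) for Zhx3.

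**Figure D2:**
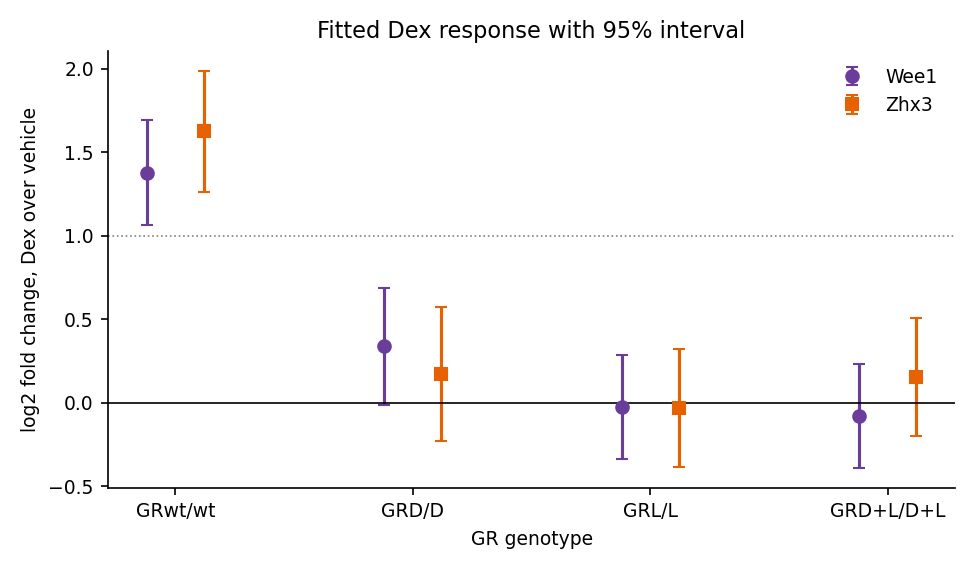
Fitted log2 fold change of Dex over vehicle for Wee1 (circles) and Zhx3 (squares) in each genotype, with 95% intervals and a dotted line at an LFC of 1. The GRwt/wt intervals, 1.06 to 1.69 and 1.26 to 1.99, lie above the line and all other intervals below it. Both genes were chosen by their GRwt/wt, GRL/L and double-mutant responses, so the place of those intervals tests nothing.

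The level of a genotype was taken as the mean of its vehicle and Dex groups on the log2 scale and was compared between mutants. Any Dex response of a genotype enters its level, such as the 0.34 of Wee1 in GRD/D, and the libraries are those used in the choice. The level of Zhx3 was higher in GRL/L than in GRD/D, by 0.49 on the log2 scale (SE 0.13, 1.41-fold, adjusted p = 0.0131 in edgeR), and higher in GRD+L/D+L than in GRD/D, by 0.57 (SE 0.13, 1.48-fold, adjusted p = 0.00569). All 5 GRD/D libraries, at 20.0 to 23.9 CPM, were below all 12 libraries of the other mutants, of which the lowest was at 27.3 CPM. How many of all genes were separated in this way was not counted, so this is a description only. Macrophage markers, 10 genes, summed to 6.04 to 81.7 CPM in the double mutant, where up to 4 of them were at 0, against 267 to 1714 CPM in GRD/D and 304 to 757 CPM in GRL/L, where none was at 0. Their part in the level differences was not tested. The 2 differences passed the adjusted p but not the fold of a call. An adjusted p of at most 0.05 was reached by 18.1% of genes in GRL/L against GRD/D and by 18.9% in GRD+L/D+L against GRD/D, and 5.71% and 8.6% were called.

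The test against GRL/L rested on single GRD/D vehicle libraries, and both tests on the treatment of equally numbered libraries as separate. Without GRD/D vehicle library 1 or 2, the first difference was 0.51 or 0.48 with an adjusted p of 0.0603 or 0.0618. When equally numbered vehicle and Dex libraries of a genotype were summed, the differences were 0.46 and 0.54, with adjusted p of 0.0979 and 0.0604 in edgeR. In GRD/D, the numbers were not shown to mark a shared culture, as deviations of equally numbered libraries had correlations of 0.28 and −0.20. Dex library 3 had no partner of the same number. Its macrophage markers summed to 267 CPM, near the 275 CPM of GRD/D vehicle library 2, while GRD/D Dex library 2 was at 1714 CPM. Whether summing joined libraries of different cultures was not tested. GRL/L and GRD+L/D+L differed by 0.076 in Zhx3 (95% interval −0.18 to 0.33, adjusted p = 0.849 in edgeR).

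The level of Wee1 differed by 0.036 between GRL/L and GRD/D (95% interval −0.20 to 0.27, adjusted p = 0.866 in edgeR). In GRD+L/D+L minus GRD/D it was −0.23 on the log2 scale (−0.46 to 0.0066, adjusted p = 0.164). Against GRL/L the value in GRD+L/D+L was −0.26 (−0.48 to −0.04), with an adjusted p of 0.183 in edgeR. Of all genes, 3.84% passed the adjusted p in that last comparison and 2.4% were called. With only the libraries of the 2 genotypes in the fit, the difference passed, at −0.26 with an adjusted p of 0.0399 in edgeR. That fit treated equally numbered libraries as separate. It was the only pass in 33 alternatives, and the adjusted p was up to 0.551 in another.

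In vehicle alone, and as a description, Wee1 was 0.45 higher in GRL/L than in GRwt/wt on the log2 scale, with differences of 0.21 in GRD+L/D+L (95% interval −0.099 to 0.52) and 0.23 in GRD/D (−0.12 to 0.58). Without GRwt/wt vehicle library 1, these values were 0.32, 0.11 and 0.11. Zhx3 was 0.57 higher in GRL/L and 0.55 higher in the double mutant and differed by −0.030 in GRD/D (0.098 without GRwt/wt vehicle library 3). GRwt/wt vehicle was thus the lowest of the 8 groups for Wee1 and the second lowest for Zhx3, after GRD/D vehicle. In the order of group means, GRwt/wt Dex was the highest for both genes, and its range met that of no other group. All neighbours in the rest of the Wee1 order overlapped, from GRD/D Dex at 26.4 CPM down to GRwt/wt vehicle at 17.8 CPM. For Zhx3, the rest fell into GRL/L and double-mutant groups at 30.3 to 34.0 CPM and, below them without overlap, GRD/D and GRwt/wt vehicle groups at 20.5 to 23.1 CPM. The share of all genes with such gaps between groups was not counted.

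**Figure D3:**
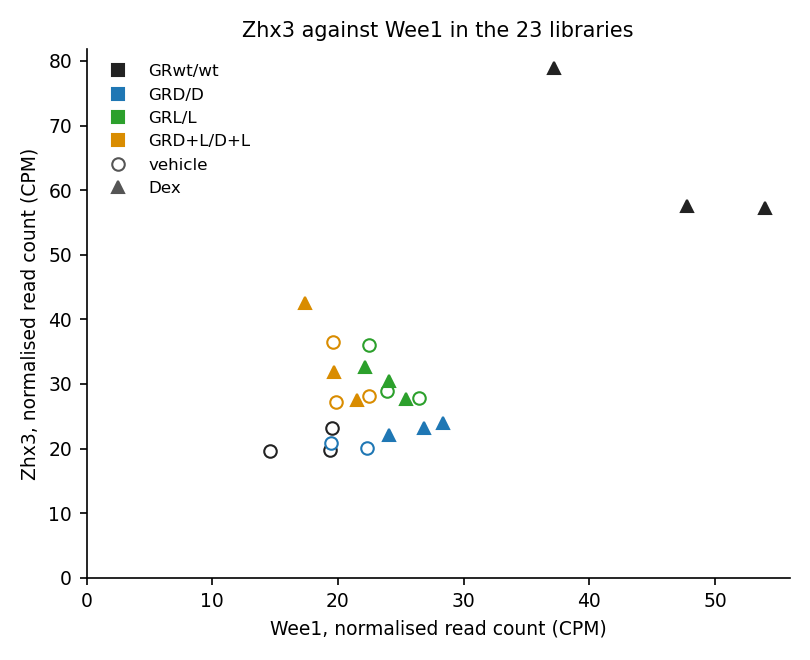
Zhx3 against Wee1 in the 23 libraries, both in CPM on linear axes from 0, with colour for genotype, open circles for vehicle and filled triangles for Dex. The 3 GRwt/wt Dex libraries lie apart at the upper right, and among the other 20 libraries the GRD/D points lie lower in Zhx3, at 20.0 to 23.9 CPM, than those of the other mutants.

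Across all 23 libraries, Pearson's r of the log2 CPM of Wee1 with Zhx3 was 0.67 and Spearman's rho 0.40. Over the 20 libraries other than GRwt/wt Dex, r was 0.011. After the mean of each of the 8 groups was taken out, the deviations had an r of −0.55. The libraries of a culture and the totals used for scaling are shared by the 2 genes, so these values describe this set of libraries.

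Among 13240 genes with a mean of at least 1 CPM, Zhx3 was the 32nd most like Wee1 by Pearson's r over the 23 libraries, and Wee1 the 73rd most like Zhx3. The 5 genes most like Wee1 were Fkbp5 (r = 0.86), Pld1 (0.83), Tsc22d3, the GILZ gene (0.82), Zbtb16, a zinc-finger repressor (0.82), and Tmem38b, a channel of the endoplasmic reticulum (0.80). Without the GRwt/wt Dex libraries, r was 0.53 for Fkbp5, 0.79 for Pld1, 0.16 for Tsc22d3, 0.38 for Zbtb16 and 0.43 for Tmem38b. The 5 genes most like Zhx3 were Sult1a1, a sulfotransferase (0.87), Sesn1 (0.87), Irf2, an interferon regulatory factor (0.84), Adamts1, a secreted protease (0.84), and Pdk4, a kinase that inhibits pyruvate dehydrogenase (0.84). Without the same libraries, r was 0.64 for Sult1a1, 0.59 for Sesn1, 0.69 for Irf2, 0.84 for Adamts1 and 0.85 for Pdk4. The 2 sets of 5 had 0 genes in common. By Spearman's rho, 1 of the 5 stayed in the set of Wee1 and 2 of the 5 in that of Zhx3. Without GRwt/wt vehicle library 1, these numbers were 3 and 2.

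The other 19 genes of the CDK1 switch, all tested, contained no called gene in any of the 4 Dex contrasts (0 in edgeR and 0 in DESeq2). At an unadjusted p under 0.05 there was 1 gene in GRwt/wt, Chek2 at −0.46 (adjusted p = 0.254 in edgeR, and −0.18 without GRwt/wt vehicle library 3), and 0 in each mutant. Of all genes, 15.6% were under that p in GRwt/wt. Their median LFC in GRwt/wt was −0.12, against −0.0093 over all genes, with 3 of 19 above 0. Chosen after their values were seen, Pkmyt1, Cdk1, Cdc25b and Plk1 had GRwt/wt values of −0.32 (SE 0.31) for the kinase that acts beside WEE1, −0.30 (SE 0.25) for Cdk1, −0.10 (SE 0.28) for Cdc25b and −0.66 (SE 0.50) for Plk1. The values of Pkmyt1, Cdk1 and Cdc25b hung on single GRwt/wt libraries, and that of Plk1 was not checked in this way. Pkmyt1 was at −0.19 without vehicle library 1 and −0.50 without vehicle library 2, Cdk1 at −0.12 without vehicle library 3, and Cdc25b at −0.31 without vehicle library 2 and 0.048 without vehicle library 1. Without vehicle libraries 1 and 3 together, Pkmyt1 was at 0.11 and Cdc25b at 0.40. Wee1 stood at 1.38, and the other members ran from −0.66 to 0.54. The upper end was Atm, a checkpoint kinase (SE 0.59, adjusted p = 0.684 in edgeR), which was at 1.23 without GRwt/wt vehicle library 3, 1.09 with the replicate block and −0.0095 without vehicle library 1. The median of the 19 was 0.090 for GRD/D, 0.0052 for GRL/L, and 0.033 for the double mutant.

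Between mutants, 0 of the 19 genes were called by level in edgeR or DESeq2, but by adjusted p alone 4 were higher and 1 lower in GRL/L than in GRD/D, 5 of 19 against the 18.1% of all genes given above. These were Cdk2 (0.58, adjusted p = 0.00631 in edgeR), Cdc25b (0.81, adjusted p = 0.0154), Bora, an activator of Aurora kinase A (0.72, adjusted p = 0.0110), and Pkmyt1 (0.73, adjusted p = 0.0403). The lower gene was Chek2, a checkpoint kinase (−0.83, adjusted p = 0.000736). In GRD+L/D+L against GRD/D, Cdc25b (0.85), Bora (0.59) and Chek2 (−0.69) passed the adjusted p of the same edgeR fit, 3 of 19 against 18.9% of all genes. Chek2 passed in all 33 alternatives of both comparisons. Pkmyt1 in GRL/L was lost in 12 of 33 and Bora in the double mutant in 9 of 33, with adjusted p up to 0.155 and 0.104, both without GRD/D vehicle library 2. In GRL/L against GRD/D, Cdk2, Cdc25b and Bora were each lost without a GRD/D vehicle library (adjusted p of 0.0540, 0.0663 and 0.0558 at the most), as was Cdc25b in the double mutant (0.0550).

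The list of 12 proliferation genes, such as Mki67 and the MCM helicase subunits, had 0 called genes in each Dex contrast in edgeR and in DESeq2, and 0 at an unadjusted p under 0.05. Its median LFC was −0.29 in GRwt/wt and 0.41 in GRD/D, where 12 of 12 were above 0. The summed level of these genes ranged from 246 to 621 CPM over the libraries, and in GRwt/wt it was 246, 253 and 523 CPM with vehicle and 291, 346 and 277 CPM with Dex. Vehicle library 3 alone lay above the Dex libraries, and the other 2 vehicle libraries lay below all of them, so no direction is given for GRwt/wt. In GRD/D the sum was 267 and 280 CPM with vehicle and 293, 470 and 316 CPM with Dex. Dex library 2 thus stood apart in GRD/D, and the median of the list without it was not computed. The part of this spread in the Wee1 values was not tested.

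In the clock list, 2 of 16 genes were called higher with Dex in GRwt/wt in edgeR, against 0.159% of all genes, with 3 of 16 in DESeq2. At an unadjusted p under 0.05 there were 6 of 16, against 15.6% of all genes. No clock gene was called in a mutant in edgeR (at an unadjusted p under 0.05 there were 4 in GRD/D, Per1, Per2, Cry1 and Nr1d1, and 0 in the other mutants, against 0.978% of all genes in GRD/D, and DESeq2 called Per1 in GRD/D). Per1, a repressor of the clock loop with a known glucocorticoid response, rose by 1.85 (SE 0.19, adjusted p = 0.000102 in edgeR), from 21.8 ± 8.19 to 78.5 ± 8.76 CPM (n = 3 each). Per2, its partner, rose by 2.00 (SE 0.29, adjusted p = 0.00341). In the fit to the GRwt/wt libraries alone, neither passed, at an adjusted p of 0.970 for both. The median LFC of the list in GRwt/wt was 0.23.

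Per1 in GRD/D had its vehicle libraries at 16.5 ± 0.40 CPM (n = 2) and its Dex libraries at 41.9 ± 3.58 CPM (n = 3), an LFC of 1.35 (SE 0.21, adjusted p = 0.0999 in edgeR). The adjusted p was at most 0.05 in 7 of 32 alternatives, among them 6.9e-05 without GRwt/wt vehicle library 1, 0.0127 without vehicle library 3, 0.0459 with the replicate block and 8.17e-07 in DESeq2, and it was 1 without either GRD/D vehicle library. The LFC ran from 1.29 to 1.41 over the libraries left out. Its LFC was 0.14 in GRL/L and −0.063 in the double mutant. Hlf, a clock output factor, had an LFC of 2.24 in GRwt/wt (SE 0.61, adjusted p = 0.144 in edgeR). Without GRwt/wt Dex library 2 it was 1.24, and it was called with DESeq2 (2.27, adjusted p = 0.0112), with the replicate block (1.92, adjusted p = 0.0146), without Dex library 1 (2.76) and without vehicle library 2 (2.62). Its level was lower in the double mutant than in GRD/D, with a difference of −1.39 (adjusted p = 0.0351 in edgeR), a call that was lost when any 1 of the 5 GRD/D or 6 double-mutant libraries was left out (adjusted p up to 0.171, without GRD/D vehicle library 1) and with equally numbered libraries summed (0.108). Against GRL/L, Hlf in the double mutant was at −1.49 (adjusted p = 0.0571 in edgeR), which passed in 9 of 33 alternatives, with an adjusted p of 0.0161 without GRwt/wt Dex library 1 and 0.00705 with only the compared genotypes in the fit. Of the 16 clock genes, 1 was higher and 2 lower by adjusted p in the double mutant than in GRD/D, against 18.9% of all genes, and 1 was called, against 8.6%. Beside Hlf these were Per3 (0.40, adjusted p = 0.00405 in edgeR) and Cry1 (−0.37, adjusted p = 0.0328), chosen after their values were seen. Dbp, Nr1d1 and Nr1d2, which like Wee1 are known clock-driven genes, were chosen after their values were seen and were not called.

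**Figure D4:**
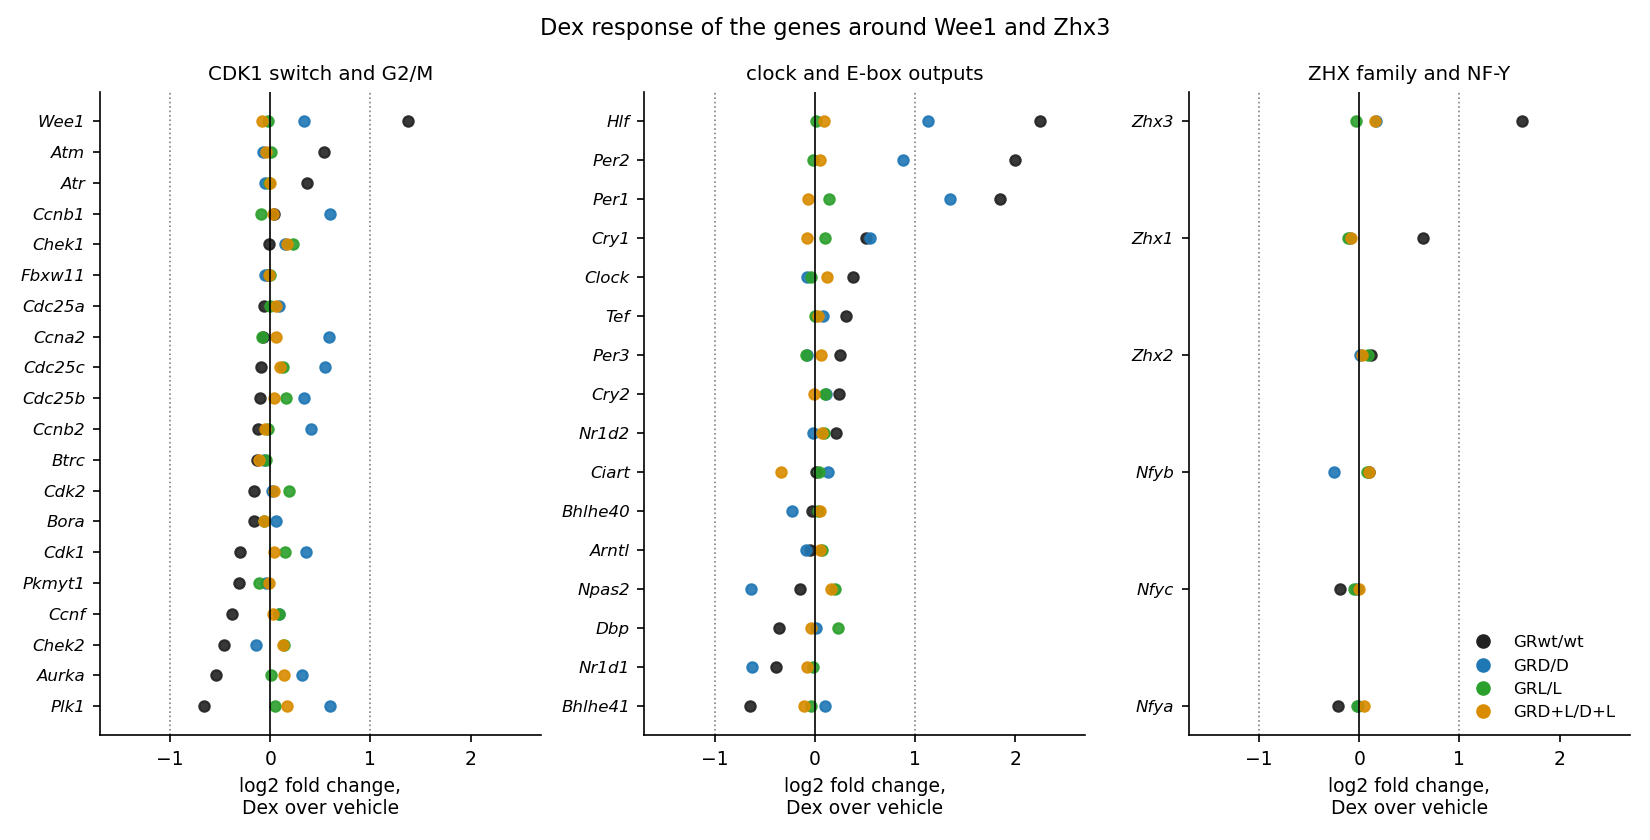
Fitted log2 fold change of Dex over vehicle for the genes of the CDK1 switch, the clock and the ZHX and NF-Y lists, ordered by the GRwt/wt value, with a point for each genotype and dotted lines at −1 and 1. Wee1 and Zhx3 lead their own lists at 1.38 and 1.63 in GRwt/wt, and Hlf, Per2 and Per1 exceed 1 in the clock list, of which Per1 and Per2 were called in edgeR and all 3 in DESeq2.

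Zhx3 was the only member of the ZHX and NF-Y list of 6 that was called, and it was in the list by choice. The other 5 had 0 called genes in each of the 4 Dex contrasts in edgeR and in DESeq2, and 0 at an unadjusted p under 0.05. Zhx2 differed by 0.12 in GRwt/wt (SE 0.11, adjusted p = 0.639), and Nfya by −0.21, Nfyb by 0.10 and Nfyc by −0.19. The value of Zhx1 was 0.63 (SE 0.54, adjusted p = 0.606), with a GRwt/wt vehicle mean of 36.2 ± 29.0 CPM and a lowest library at 2.98 CPM. Without GRwt/wt vehicle library 1, Zhx1 was at 0.093, Nfyb at −0.16 and Nfyc at −0.046, and without vehicle library 3 Nfya was at 0.013. In level between mutants, Zhx2 was 0.33 higher in GRD+L/D+L than in GRD/D (adjusted p = 0.0116 in edgeR), the only one of the 5 to pass the adjusted p, which 18.9% of all genes did. It was lost in 4 of 33 alternatives, with an adjusted p of 0.0717 without GRD/D vehicle library 1 and up to 0.0826 elsewhere. Per kilobase of exon, the group mean of Zhx1 ran from 6.01 to 11.6 CPM, that of Zhx2 from 3.25 to 4.14 and that of Zhx3 from 1.54 to 4.87.

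The genes beside Wee1 and Zhx3 were compared in the same fits. Of the 3 tested genes on each side of Wee1, 0 of 6 were called with Dex in any genotype in edgeR, and 0 had an unadjusted p under 0.05. Their GRwt/wt LFCs ran from 0.19 for Zfp143, 26.7 kb away, to 0.63 for Sbf2 (SE 0.42), 165 kb away. Of the 6 genes beside Zhx3 and Plcg1, which overlaps it, 0 of 7 were called with Dex and 1 had an unadjusted p under 0.05 in GRwt/wt, against 15.6% of all genes. That was Chd6, a chromatin remodeller 74.0 kb away, at 0.86 (SE 0.39, adjusted p = 0.295 in edgeR). In level, Chd6 was 0.85 higher in GRL/L (adjusted p = 0.0562) and 0.87 higher in the double mutant (adjusted p = 0.0499 in edgeR) than in GRD/D, and Swap70, beside Wee1, was 0.46 higher in the double mutant (adjusted p = 0.00863). Emilin3 had level differences from GRD/D of 3.65 in GRL/L (adjusted p = 0.0608) and 3.60 in the double mutant (adjusted p = 0.0620). None of these was called by level in edgeR. With Dex in GRwt/wt, Lpin3, 7.67 kb away, had an LFC of 1.19 (SE 0.72) and Emilin3, at a mean of 0.914 CPM, one of 2.57 (SE 1.45). The lowest was that of Gm14221, at −1.41 (SE 1.11) and a mean of 0.541 CPM.

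**Figure D5:**
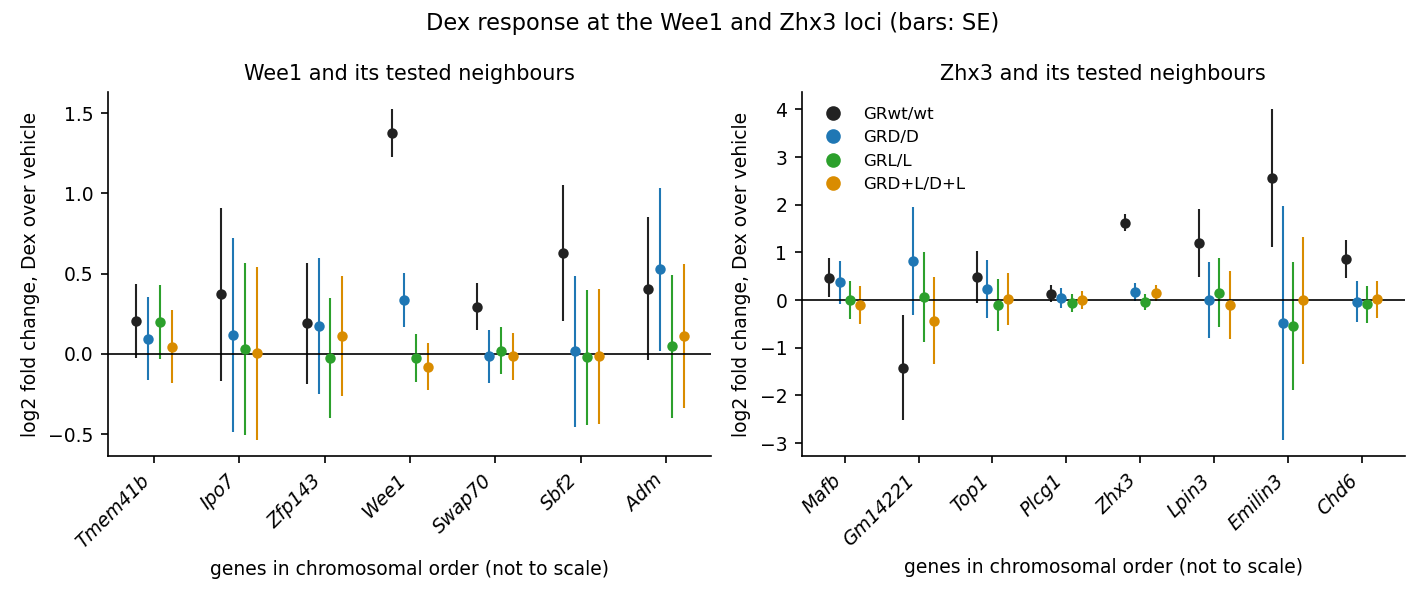
Fitted log2 fold change of Dex over vehicle, with SE, of Wee1 and Zhx3 and the tested genes around them in chromosomal order (horizontal spacing not to scale), coloured by genotype. The Wee1 and Zhx3 points of GRwt/wt, at 1.38 and 1.63, have SEs of 0.15 and 0.17, while Emilin3 in GRwt/wt, the single neighbour point above them at 2.57, has one of 1.45.

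The way the counts were made left some genes uncertain. Plcg1, on the opposite strand, shares 379 exon bases with Zhx3, out of 13259 exon bases of Zhx3, and had 1871 to 3443 counts per library, against 357 to 1683 for Zhx3. Whether counting used strand is not given in the sources used here. Plcg1 differed by 0.14 with Dex in GRwt/wt (SE 0.18, adjusted p = 0.740 in edgeR), and by 0.47 (adjusted p = 0.0792) without GRwt/wt vehicle library 1. Gm27206 shares 133 exon bases with Zhx3 and had at most 1 count. The antisense gene 1600010M07Rik overlaps Wee1 without a shared exon base and had at most 23 counts.

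The libraries held 16.5 to 23.1 M counts, and Wee1 had 264 to 1068 and Zhx3 357 to 1683 of them. GRwt/wt vehicle library 1 stood apart, with a highest Spearman correlation to another library of 0.916 against 0.973 or more for the others, and it had the lowest Wee1 of all libraries. Skeletal muscle markers summed to 267 CPM in it and to 172 in GRwt/wt Dex library 1, against 11.5 to 47.6 elsewhere. Of the 5 markers, 3 were at 0 in both of these libraries, and Myod1, Myog and Ckm had at most 3 counts in any library. The sums were thus almost wholly Des and Acta1. Over genes, Spearman's rho of a library's deviations with GC content was 0.71 and 0.33 in these 2 libraries, against −0.20 to 0.11 in the others. Without vehicle library 1, the GRwt/wt LFC was 1.25 for Wee1 and 1.59 for Zhx3, and without Dex library 1 it was 1.28 and 1.74. GRwt/wt vehicle library 3 had macrophage markers summing to 4959 CPM, against 6.04 to 1714 in the other libraries. Without both vehicle library 1 and vehicle library 3, the GRwt/wt LFC was 1.25 for Wee1 and 1.69 for Zhx3. Macrophage markers summed to 15.4 to 99.3 CPM in GRwt/wt Dex. Fibroblast markers summed to at least 40526 CPM in all libraries and none of them was at 0. Nr3c1, the gene of GR itself, was at 55.0 ± 44.8 CPM in GRwt/wt vehicle, 106 ± 1.36 for GRD/D, 135 ± 2.44 for GRL/L and 205 ± 66.9 for the double mutant. Its lowest GRwt/wt vehicle library was at 4.08 CPM. Gene counts do not show point changes, so the genotype labels were not checked by Nr3c1.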

How the data were processed

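RNA-seq of MEFs of 4 GR genotypes, with vehicle or Dex, was taken as 23 columns of deposited read counts per gene. Per the submitters' processing notes, the authors mapped reads with HISAT2 2.1.0 to mm10 (GRCm38) and counted them with featureCounts 2.0.0. The annotation release and the use of strand are not given in the sources used here. Of 55487 identifiers, 55141 occur in GENCODE M21.

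Counts were fitted with edgeR 4.0.16 (limma 3.58.1, R 4.3.3) in all 23 libraries and 8 groups, with TMM scaling, filterByExpr and a prior count of 0.125. P-values were adjusted by Benjamini-Hochberg over 15748 genes, and a call needed both an adjusted p no higher than 0.05 and an LFC of 1 or more in size. CPM used TMM-scaled totals. DESeq2 1.42.0, other scalings and filters, a replicate block and leaving out each library were the alternatives. The script was tested on simulated data. Within each group, every pair of replicates differed by more than sampling noise. Libraries of different groups were not compared in this way.

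Wee1 and Zhx3, and the gene lists, were chosen with earlier results of these data known. Named were both members, Nr3c1, list genes called or highest expressed, overlapping and 3 neighbouring genes per side, the 5 genes most alike and the called genes next in order, of which 1 is not reported here. The labels do not say whether equally numbered libraries share a culture. Replicate numbers were taken to pair the libraries in GRL/L and the double mutant, where the correlation of same-numbered deviations was at least 0.32. Values for differently numbered libraries are not given here. In GRwt/wt it was 0.55, 0.027 and −0.026, and in GRD/D 0.28 and −0.20. Replicates are cultures of different mice.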

Additional observations from a re-analysis of the deposited data

Results flagged for a closer look

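Values stood out because the Dex response differed between genotypes. For Wee1, the log2 Dex response in GRL/L minus that in GRwt/wt was −1.40 and in GRD+L/D+L minus GRwt/wt −1.46. For Zhx3, the corresponding differences were −1.66 and −1.47. These are the contrasts by which both genes were chosen. That both were called there is part of the choice, and no p is given for them. For Per1, a clock gene, the differences were −1.71 in GRL/L (adjusted p = 0.0148 in edgeR's quasi-likelihood test over all genes) and −1.91 in GRD+L/D+L (adjusted p = 0.00681).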

How the results depend on the processing

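The Dex differences of Wee1 and Zhx3 in GRwt/wt kept their direction under all 32 alternatives. Both genes were chosen for this rise, so its stability adds no support. Leaving out single libraries gave 1.25 to 1.52 for Wee1 and 1.46 to 1.75 for Zhx3, and the difference between the double mutant and GRwt/wt ran from −1.69 to −1.30 for Zhx3, the first without GRD+L/D+L Dex library 1. In level, Zhx3 in GRL/L against GRD/D ran from 0.43 to 0.53 when libraries were left out, and was 0.46 with equally numbered libraries summed. Against GRD/D, the double mutant had 0.54 with such libraries summed, and neither value passed there. Summing was chosen after the data were seen. Zhx3 in GRD+L/D+L against GRL/L ran from −0.012 (without GRD+L/D+L Dex library 1) to 0.14. Wee1 in GRL/L against GRD/D ran from −0.019 (without GRD/D vehicle library 1) to 0.088, and was −0.044 with libraries summed. Wee1 in GRD+L/D+L against GRL/L was −0.26 and passed in 1 of 33 alternatives, with only the compared genotypes in the fit. The Spearman value of Wee1 with Zhx3 was 0.40 against a Pearson value of 0.67. By adjusted p alone, level lists gave 5 (CDK1, GRL/L against GRD/D), 3 (CDK1, double mutant against GRD/D) and 1 (ZHX). The clock count in GRD/D was 1 with at least 10 counts in every library, with DESeq2, with only the compared genotypes, with the replicate block and without GRwt/wt vehicle 1 and 3 together. It ran from 0 to 1 when single libraries were left out, with 1 without GRwt/wt vehicle library 1 or 3. With only the compared genotypes, the clock count in GRwt/wt was 0 and the proliferation count in GRL/L against GRD/D was 2 (Mki67 and Cenpf). The causes were not tested.

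With the replicate block, which for Dex was the number within a genotype, the Dex difference in GRwt/wt was 1.37 for Wee1 and 1.61 for Zhx3. In GRD/D it was 0.28 and 0.14 (adjusted p of 1 for both in edgeR). For levels, the block was the number across genotypes, where equal numbers are different mice. It did not account for vehicle and Dex libraries of the same culture. With it, Zhx3 in GRL/L against GRD/D was 0.49. Apart from the clock count, the block changed no call. In GRwt/wt and GRD/D the numbers were not shown to pair the libraries. Of 121 values of list genes and Plcg1 with an adjusted p above 0.05 in edgeR, 18 passed it in at least 1 alternative and 59 changed sign in at least 1, while of 12 that passed, 10 were lost in at least 1 and 0 changed sign. Groups of 2 or 3 libraries limit what the tests can show.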
